A study of Homo sapiens with 16 samples.

Results

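The genes described are 7 fibrillar collagen chains, COL1A1, COL1A2, COL3A1, COL5A1, COL5A2, COL5A3 and COL11A1. They were taken by gene symbol from a count table of 20114 genes, all 7 had a row, and all 7 were among the 14035 genes that passed the filter on low counts. RNA was sequenced from 2 human cell lines, Hs578, which is labelled as breast cancer cells, and TT642, which is labelled as rhabdoid tumor cells although the series design calls both lines triple-negative breast cancer. In each line, 3 derived lines carried 1 doxycycline-inducible short hairpin RNA (shRNA) each against PRRX1 (shPRRX1_1, shPRRX1_2 and shPRRX1_3, here hairpins 1 to 3). The groups of a line were hairpin lines with 3 µg/ml doxycycline (3 libraries), hairpin lines without doxycycline (3 libraries), parental cells with no hairpin given doxycycline (1 library), and parental cells without doxycycline (1 library), which gave 16 libraries in all. No line with a control hairpin was among the samples, so that the parental pair is the doxycycline control, and no treatment time is given in the sources used here. The labels do not state whether each library had its own culture. The p-values therefore rest on the spread between these libraries, part of which may be technical and part of which is the difference between hairpins.

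Fibrillar collagens are the rope-forming proteins of connective tissue. A molecule is a triple helix of chains, folded in the endoplasmic reticulum with the help of hydroxylases and chaperones, secreted, and trimmed at its ends before it joins a fibril. COL1A1 and COL1A2 encode the chains of type I collagen, the bulk fibril of skin, bone and tumour stroma. COL3A1 encodes the chain of type III collagen, which mixes with type I in elastic tissues. COL5A1, COL5A2 and COL5A3 encode type V chains, which are buried in type I fibrils and limit their width, and COL11A1 encodes a chain of the related cartilage collagen, type XI. PRRX1 is a homeobox transcription factor of mesenchymal cells, and the hairpin libraries address what its loss does to expression.

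The genes lie on several chromosomes, and only COL3A1 and COL5A2 are neighbours, on chromosome 2, with 0 annotated genes between them in RefSeq. RefSeq promoter windows were matched for COL5A1, COL5A3 and COL11A1 only, and none was matched for COL1A1, COL1A2, COL3A1 and COL5A2. The 250 bases before the annotated start are printed 5′ to 3′ on the gene's strand, with the GC box (GGGCGG) and the CCAAT box (CCAAT) in capitals on either strand. They lie at chr9:134641553-134641802 on the plus strand for COL5A1, at chr19:10010505-10010754 on the minus strand for COL5A3, and at chr1:103108523-103108772 on the minus strand for COL11A1 (RefSeq, GRCh38.p14).
COL5A1: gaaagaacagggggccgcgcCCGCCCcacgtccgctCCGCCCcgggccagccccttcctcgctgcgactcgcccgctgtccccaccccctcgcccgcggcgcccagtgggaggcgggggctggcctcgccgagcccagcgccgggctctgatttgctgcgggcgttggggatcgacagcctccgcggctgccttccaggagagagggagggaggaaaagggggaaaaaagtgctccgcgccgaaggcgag
COL5A3: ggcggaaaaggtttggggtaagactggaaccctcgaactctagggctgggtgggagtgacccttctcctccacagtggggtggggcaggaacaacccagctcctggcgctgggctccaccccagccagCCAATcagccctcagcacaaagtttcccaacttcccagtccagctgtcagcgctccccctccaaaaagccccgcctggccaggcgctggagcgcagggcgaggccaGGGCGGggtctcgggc
COL11A1: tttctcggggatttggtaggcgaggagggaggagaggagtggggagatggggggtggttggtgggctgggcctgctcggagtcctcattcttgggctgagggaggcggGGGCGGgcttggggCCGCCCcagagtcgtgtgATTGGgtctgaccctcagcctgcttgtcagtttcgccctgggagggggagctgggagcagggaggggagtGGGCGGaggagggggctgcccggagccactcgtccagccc
All 3 windows held a GC box, as did 45.0% of 35116 RefSeq promoter windows of 300 bases. The CCAAT box was in COL5A3 and COL11A1, and in 34.6% of all windows. The motifs do not overlap each other. The letters TATAAA (11.5% of all windows) and the homeobox core letters TAATTA (4.84%) and TAATTG (7.38%) were searched on both strands over the same 300 bases and were in none of the 3. The stretches were rich in G and C, at 74.0%, 66.0% and 68.8% for COL5A1, COL5A3 and COL11A1.

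Depth was similar across groups, with total counts of 13461527 to 24672906 per library. PRRX1, the target, had 37.1, 72.8 and 51.0 CPM (counts scaled to the effective library size) in induced Hs578 hairpin lines 1 to 3, against 291, 227 and 262 CPM in the same lines without doxycycline. In TT642 it had 265, 184 and 513 CPM with doxycycline and 1213, 1409 and 1301 CPM without. With and without doxycycline, parental Hs578 cells held 298 and 290 CPM of it, and parental TT642 cells 1533 and 1484 CPM. PRRX1 was thus lower in every induced hairpin library than in its uninduced partner, and differed little with doxycycline in parental cells. By edgeR's quasi-likelihood test with Benjamini-Hochberg adjustment over all genes, it was called in Hs578 (adjusted p = 0.0022, but 0.06 without hairpin 1) and not in TT642 (adjusted p = 0.17, but 7.4e-05 by DESeq2). The mesenchymal marker VIM was abundant in both lines, at 4081 to 5874 CPM in Hs578 and 9915 to 11010 CPM in TT642. Between the uninduced hairpin lines the 5 mesenchymal markers split. ZEB1 and CDH2 were higher in Hs578 (log2 fold changes of 1.64 and 1.06), where 41.0% of all genes were. VIM and S100A4 were lower (-1.29 and -2.52), where 39.7% of all genes were, and SNAI2 was not called (0.0025). Of 6 epithelial markers, CDH1, EPCAM and KRT19 were at most 0.495 CPM in any library and CLDN4 was at 0.671 to 1.82 CPM. The simple-epithelial keratins KRT18 and KRT8 were present in Hs578, at 185 to 401 CPM and 27.7 to 56.4 CPM, and at most 1.54 CPM each in TT642, so 2 of the 3 markers tested were higher in Hs578 (log2 fold changes of 10.31 and 5.93 in uninduced hairpin lines, adjusted p = 9.9e-15 and 1.8e-09). SMARCB1, the gene whose loss defines most rhabdoid tumours, had 88 to 125 CPM in Hs578 and 28.8 to 41.6 CPM in TT642, so its transcript was present in both. The mitochondrial share of counts was 3.18% to 5.44% in induced Hs578 hairpin lines and 4.16% in parental Hs578 with doxycycline, against 2.16% to 2.79% in the 4 Hs578 libraries without it. Their part in the differences below was not tested.

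The lines differed first in which chains they made. FPKM, the fragment count scaled to transcript length and library depth, is used to set genes against each other, because it divides by length. At few counts the authors' FPKM did not follow the counts. COL11A1 had 7 counts in Hs578 hairpin 1 without and with doxycycline, at 0.149 and 0.0521 FPKM. In the 4 Hs578 libraries without doxycycline the order was COL1A2 at 309 to 384 FPKM, COL1A1 at 249.3 to 277.6, COL3A1 at 75.0 to 103, COL5A1 at 59.1 to 67.3, COL5A2 at 37.9 to 47.9, COL5A3 at 2.92 to 4.36 and COL11A1 at 0.0260 to 0.149 FPKM. No 2 neighbours in that order overlapped. In the 4 TT642 libraries without doxycycline, COL5A2 led at 218 to 298 FPKM, ahead of COL3A1 at 94.2 to 183 FPKM. COL11A1 at 34.0 to 78.6 FPKM and COL1A1 at 13.2 to 48.7 FPKM overlapped, as did COL5A3 at 4.195 to 7.813 FPKM and COL5A1 at 1.66 to 5.72 FPKM. COL1A2 was last at 0.0651 to 0.224 FPKM. TT642 therefore held transcripts of type III, type V and type XI chains and of COL1A1, with nearly no COL1A2 beside it, whereas Hs578 held both type I chains and nearly no COL11A1.

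**Figure D1:**
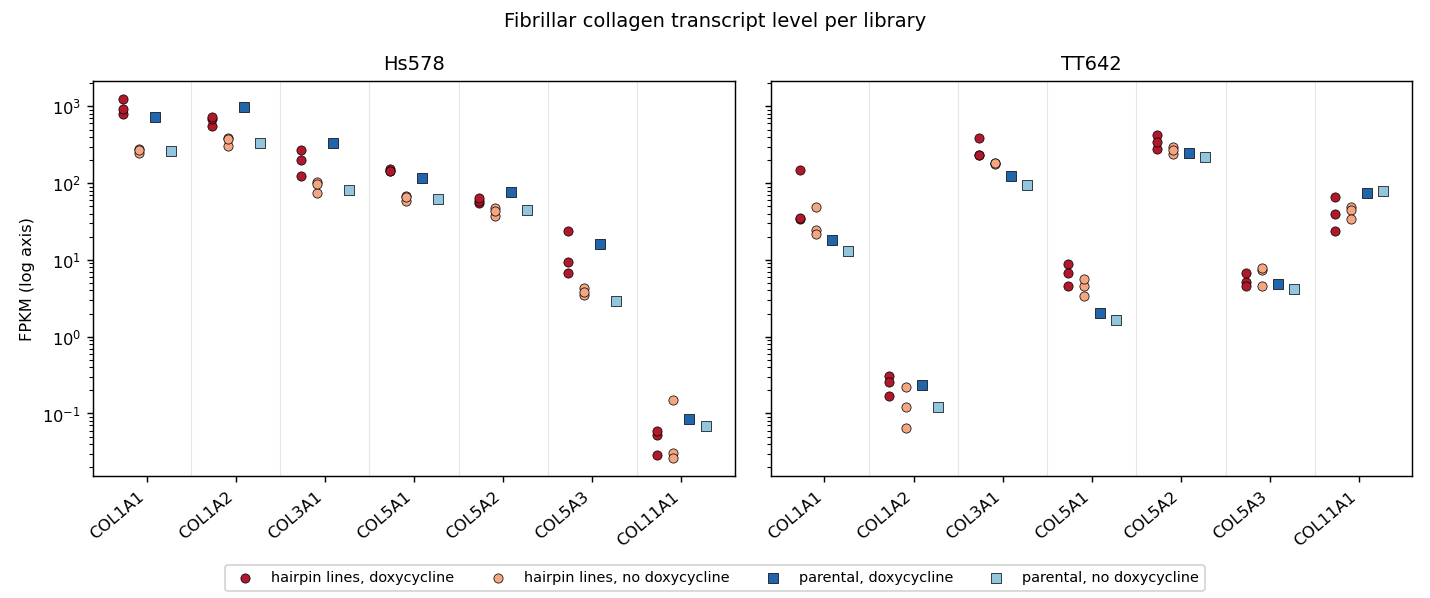
Level of each fibrillar chain in FPKM on a log axis, 1 point per library, for Hs578 (left) and TT642 (right), with circles for hairpin lines and squares for parental cells. COL1A2 lies at 0.0651 to 0.306 FPKM in TT642 hairpin and parental libraries and at 309 FPKM or more in every Hs578 library, and COL11A1 shows the opposite arrangement.

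The difference between lines was tested in the uninduced hairpin lines, 3 of Hs578 against 3 of TT642. Of the 7 chains, 3 were higher in Hs578, where 41.0% of all genes tested were called higher, and 3 were lower, against 39.7% of all genes, so the counts are near the background of 2 unlike lines and the sizes are the description. COL1A2 had 47810, 36129 and 46004 counts in the Hs578 libraries, against 8, 28 and 13 counts in the TT642 libraries (log2 fold change 11.51, SE 0.29, adjusted p = 2.3e-13). COL11A1 had 7, 2 and 4 counts in Hs578, against 6126, 6877 and 4697 in TT642 (log2 fold change -10.23, SE 0.49, adjusted p = 7.2e-09). Both sets of counts were far apart, with parental libraries at the same extremes. COL5A1 was higher in Hs578, at 581 ± 52.8 CPM against 38.5 ± 10.7 CPM (SD, n = 3 each; log2 fold change 3.91, adjusted p = 3.9e-08), and so was COL1A1, at 2180 ± 146 against 238 ± 123 CPM (3.20, adjusted p = 0.0015). COL5A2 was lower, at 401 ± 48.5 against 2270 ± 222 CPM (-2.50, adjusted p = 1.8e-09), so the pair of type V chains split in opposite directions between the lines. COL3A1 was lower at 647 ± 99.9 against 1129 ± 20.6 CPM (-0.80, adjusted p = 0.022), a call that was lost when parental libraries were averaged in (adjusted p = 0.14), without hairpin 2 (0.094) and without uninduced Hs578 hairpin 2 (0.077). The smallest contrast was for COL5A3, at 32.6 ± 3.53 against 48.5 ± 12.5 CPM (-0.57, SE 0.47, adjusted p = 0.29).

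Most of these chains rose with doxycycline in Hs578 hairpin lines. COL1A1, COL1A2, COL3A1, COL5A1, COL5A2 and COL5A3 rose, 6 of 7 members, where 15.2% of all genes tested were called higher, and none of the 7 fell (14.1% of all genes were called lower). The members' median log2 fold change was 1.20, beside a median of 0 over all genes. The fibrillar chains together took 1.28%, 1.57% and 1.99% of all counts in induced hairpin lines 1 to 3, against 0.663%, 0.547% and 0.627% without doxycycline, so that the induced libraries did not overlap the uninduced ones. The parental cells, which have no hairpin, took the same course, with 1.67% of counts with doxycycline (exact 95% binomial interval 1.666% to 1.678%, counting error only) and 0.557% without (0.554% to 0.561%).

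Of the type I chains, COL1A1 had 6721, 8701 and 12260 CPM in induced Hs578 hairpin lines 1 to 3, against 2336, 2046 and 2159 CPM without doxycycline. Parental cells held 6601 CPM with doxycycline and 2042 CPM without. All 4 libraries with doxycycline lay above all 4 without, and the parental induced library lay just below hairpin 1. The log2 fold change over the hairpin lines was 2.08 (SE 0.63, adjusted p = 0.036). COL1A2 had 4009, 5172 and 5894 CPM in induced hairpin lines, against 2778, 2202 and 2649 CPM in uninduced ones (log2 fold change 0.98, SE 0.17, adjusted p = 0.0017). Here the parental pair moved further than any hairpin pair, with 7474 CPM with doxycycline and 2347 CPM without, so that the parental induced library was the highest of the line.

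COL3A1, the type III chain, had 879, 1493 and 2072 CPM in induced hairpin lines and 738.5, 540.4 and 661.9 CPM in uninduced ones. Its log2 fold change was 1.20 (SE 0.29, adjusted p = 0.011). Hairpin 1 added little, with a pair log2 ratio of 0.25, while hairpins 2 and 3 gave 1.47 and 1.65. The parental pair gave 2.23, the largest of the line, at 2480 CPM with doxycycline against 529.3 CPM without.

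Among the type V chains, COL5A1 had 1184, 1412 and 1421 CPM with doxycycline, against 639.3, 536.2 and 568.2 CPM without (log2 fold change 1.20, SE 0.23, adjusted p = 0.0036). COL5A2, its usual partner, had 512.5, 585.6 and 673.7 CPM against 451.8, 355.2 and 396.7 CPM (log2 fold change 0.56, SE 0.15, adjusted p = 0.014). The groups did not overlap for either chain, but the COL5A2 libraries of hairpin 1 lay close together. COL5A3, the chain of the rarer type V molecule, varied most between hairpins, at 56.4, 86.3 and 226 CPM with doxycycline against 29.9, 36.6 and 31.2 CPM without (log2 fold change 1.92, SE 0.48, adjusted p = 0.017). In parental cells COL5A1 had 1126 CPM with and 526.5 CPM without doxycycline, COL5A2 had 750.5 and 405 CPM, and COL5A3 had 144 and 24.3 CPM, so all type V chains were higher with doxycycline in the pair without a hairpin too. COL11A1 stayed at the limit of detection, with 7, 8 and 5 counts in induced and 7, 2 and 4 counts in uninduced hairpin lines, and was not called (adjusted p = 0.61).

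The size of the response differed between hairpins. Hairpin 1 had the lowest log2 ratio of the 3 hairpin pairs for each of the 6 called chains, between 0.18 for COL5A2 and 1.52 for COL1A1. It also had the lowest PRRX1 level of the induced Hs578 lines, and a relation between PRRX1 level and response was not tested. Hairpin 3 had the highest ratio for COL1A1, COL3A1, COL5A2 and COL5A3, and hairpin 2 for COL1A2 and COL5A1. Without hairpin 3 the count of called members fell to 1 (COL5A3, adjusted p = 0.048), without hairpin 2 to 3 and without hairpin 1 to 4, with all log2 fold changes still positive. The log2 fold change of COL5A3 was 1.09 (SE 0.26) without hairpin 3, against 1.92 with it. Without filtering COL1A1 missed the threshold (adjusted p = 0.054), and COL5A3 missed it when the Hs578 libraries were fitted alone (0.057). The COL1A1 call was lost most often of the 6, in 8 of 16 alternatives, and that of COL5A3 was lost in 5 of 16. The COL1A1 call was kept when the Hs578 libraries were fitted alone and without hairpin 2. In the main fit each gene has a spread shared by both cell lines. COL1A1 varied widely in TT642 hairpin lines, at 543 ± 508 CPM induced and 238 ± 123 CPM uninduced (SD, n = 3 each). The part of that spread in the lost calls was not tested. Leaving out any single Hs578 hairpin library except induced hairpin 1 lost the COL1A1 call (edgeR, adjusted p = 0.073 to 0.11).

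**Figure D2:**
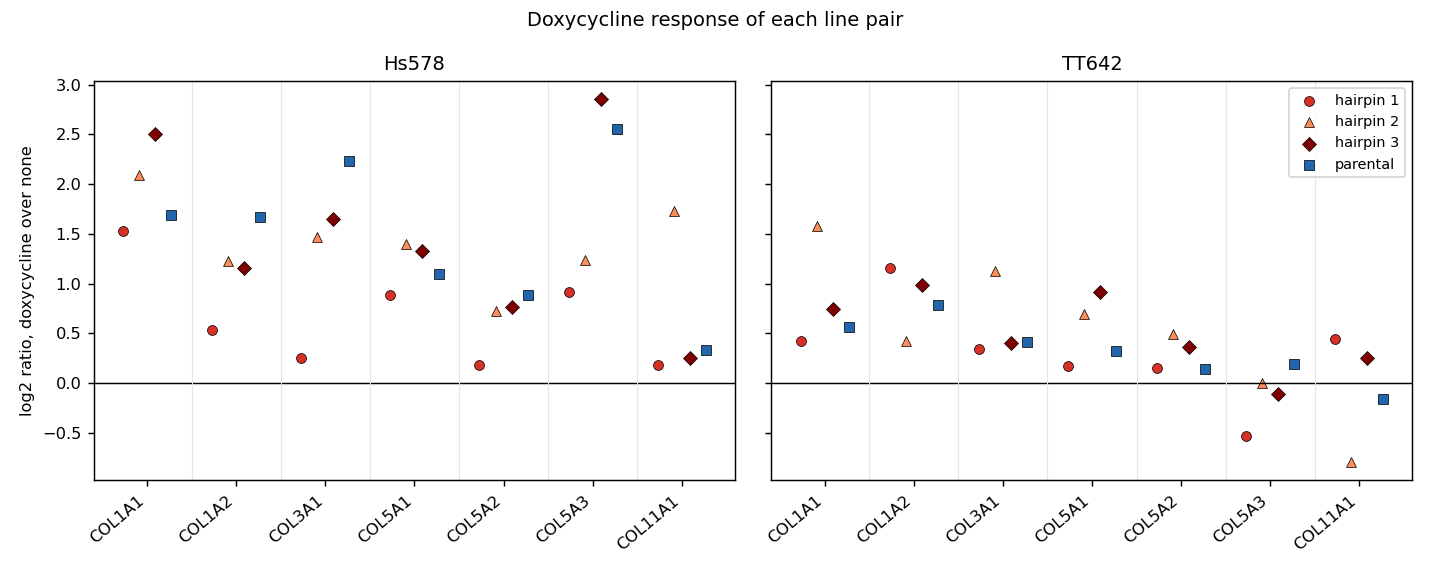
Log2 ratio of doxycycline over none for each pair of libraries, by gene, in Hs578 (left) and TT642 (right), with round, triangular and diamond points for hairpins 1 to 3 and squares for the parental pair. In Hs578 the parental square lies among or above the hairpin points for every called chain, and above all of them for COL1A2, COL3A1 and COL5A2.

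Because parental cells moved as well, the hairpin effect was tested net of the parental one. None of the 7 chains was called (edgeR, 0 of 7, and 0 by DESeq2), in a comparison that called 0.406% of all genes. At an unadjusted p under 0.05 edgeR had 0 of 7, beside 1996 of all 14035 genes. DESeq2 and edgeR with relative log expression scaling had 1 of 7 each. PRRX1, the target of the hairpins, was not called by edgeR in this comparison either (net log2 difference -2.32, SE 0.71). The net log2 differences were 0.39 for COL1A1 (SE 1.21), 0.11 for COL5A1 (SE 0.46), -0.33 for COL5A2 (SE 0.30), -0.64 for COL5A3 (SE 0.94), -0.69 for COL1A2 (SE 0.35) and -1.03 for COL3A1 (SE 0.57). Without hairpin 3 the net difference of COL5A3 was -1.48 (SE 0.45, adjusted p = 0.36), with an unadjusted p of 0.010. The SE is wide since it rests on 1 parental pair, assumed to vary like the hairpin groups, so that a hairpin-specific rise or fall of this size was not detectable. In bulk RNA, more cells that express a chain and more transcript per cell cannot be told apart.

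The ratios of partner chains lay higher in the induced hairpin lines than in the other Hs578 libraries. The FPKM ratio of COL1A1 to COL1A2 was 1.41, 1.38 and 1.70 in induced Hs578 hairpin lines 1 to 3, against 0.722, 0.808 and 0.714 in uninduced ones. It was 0.729 in parental cells with doxycycline and 0.773 in those without, so both parental libraries lay within the uninduced hairpin range although both chains had more counts with doxycycline. The change was 1.99-fold (log2 difference 0.995), and an exact two-sided permutation test of 3 against 3 libraries gave p = 0.1, the smallest it can give. The ratio of COL5A1 to COL5A2 was also higher, at 2.61, 2.60 and 2.25 in induced hairpin lines, 1.40, 1.56 and 1.51 in uninduced ones, 1.55 in parental cells with doxycycline and 1.39 in those without (1.67-fold, log2 difference 0.74, exact permutation p = 0.1). The ratio of COL3A1 to COL1A1 went the other way, at 0.158, 0.215 and 0.216 in induced hairpin lines and 0.371, 0.301 and 0.357 in uninduced ones, while in parental cells it was 0.457 with and 0.310 without doxycycline. COL1A1 thus overtook COL1A2 as the most abundant chain in each induced hairpin line, at 792 to 1249 FPKM beside 562 to 735 FPKM for COL1A2. In parental cells with doxycycline COL1A2 stayed ahead, at 990 FPKM beside 721 FPKM for COL1A1. COL1A1 ranked 114th, 104th and 80th of 20111 genes by FPKM in the induced hairpin libraries, against 252nd, 294th and 272nd in the uninduced ones.

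**Figure D3:**
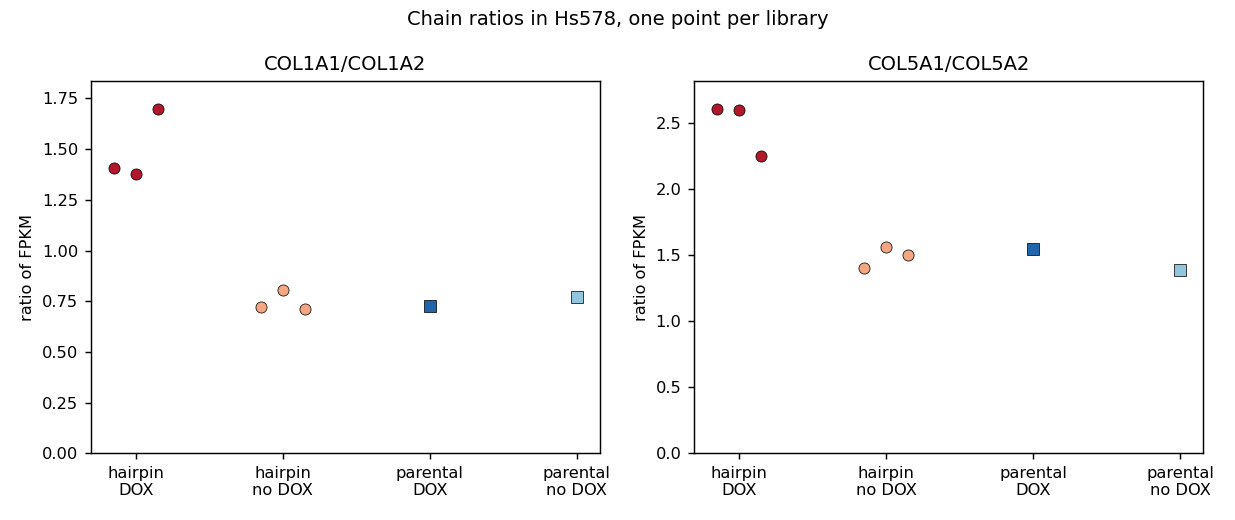
Ratio of COL1A1 to COL1A2 (left) and of COL5A1 to COL5A2 (right) in FPKM in Hs578, 1 point per library, with the vertical axes starting at 0. The 3 induced hairpin libraries lie at 1.38 to 1.70 and at 2.25 to 2.61, above the 5 other libraries in both panels.

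In TT642 hairpin lines none of the 7 chains was called by edgeR, in a comparison that called 0.0285% of all genes. At an unadjusted p under 0.05 there were 4 of 7 (COL1A2, COL3A1, COL5A1 and COL5A2), beside 1098 of all 14035 genes, and DESeq2 called 0. The members' median log2 fold change was 0.62, beside 0 over all genes. COL1A1 had 237, 1129 and 263 CPM in induced hairpin lines 1 to 3, against 177, 379 and 157 CPM without doxycycline and 130.5 CPM with and 88.1 CPM without in parental cells (log2 fold change 1.19, SE 0.61, adjusted p = 0.71). Hairpin 2 held the highest level in both conditions, and the groups overlapped. The size depended on that hairpin. The log2 fold change was 0.59 (SE 0.24) without the hairpin 2 libraries of both cell lines. The pair log2 ratios were 0.43 and 0.74 for hairpins 1 and 3, beside 1.575 for hairpin 2. Without only the induced hairpin 2 library the log2 fold change was 0.07 (SE 0.37), but that fit keeps its uninduced partner, the highest library without doxycycline. COL3A1 had 1455, 2418 and 1498 CPM against 1146, 1106 and 1135 CPM (log2 fold change 0.67, SE 0.28, adjusted p = 0.59), and here the groups did not overlap. COL5A2, the most abundant chain of this line, had 2274, 3510 and 2928 CPM against 2048, 2493 and 2270 CPM (0.36, SE 0.15, adjusted p = 0.56), and COL5A1 had 40.8, 81.2 and 55.1 CPM against 36.2, 50.2 and 29.2 CPM (0.62, SE 0.24, adjusted p = 0.53). Both overlapped between conditions, yet each of the 3 pairs was higher with doxycycline for COL1A1, COL1A2, COL3A1, COL5A1 and COL5A2, and the parental pair was too, by 0.15 (COL5A2) to 0.78 (COL1A2) on the log2 scale. COL1A2 rested on 19, 40 and 40 counts with doxycycline and 8, 28 and 13 counts without. COL5A3 had 37.8, 34.2 and 52.8 CPM against 54.5, 34.1 and 57.0 CPM, and COL11A1 had 473, 193 and 312 CPM against 347, 334 and 261 CPM. COL11A1 differed in sign between hairpins, with hairpin 2, which had the lowest PRRX1 level of the line, at a log2 ratio of -0.79 and hairpins 1 and 3 at 0.45 and 0.25. A relation to the PRRX1 level was not tested. The FPKM ratio of COL1A1 to COL1A2 spanned 137 to 479 in induced and 181 to 382 in uninduced TT642 hairpin lines (exact permutation p = 0.9), and that of COL5A1 to COL5A2 spanned 0.0169 to 0.0211 and 0.0123 to 0.0192 (exact permutation p = 0.5).

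The response of the 2 lines was compared directly. None of the 7 chains was called by edgeR for a difference between the Hs578 and the TT642 effect, where 5.24% of all genes were. At an unadjusted p under 0.05 there was 1 of 7, beside 3449 of all 14035 genes. That chain was COL5A3, at a log2 fold change of 1.92 in Hs578 and -0.22 in TT642 (difference 2.14, SE 0.66, adjusted p = 0.093). DESeq2 called it (adjusted p = 0.028), and so did edgeR without induced Hs578 hairpin 1 (0.022). For COL1A1 the difference was 0.89 (SE 0.86), for COL5A1 0.59 (SE 0.33), for COL3A1 0.53 (SE 0.40), for COL5A2 0.20 (SE 0.21) and for COL1A2 0.16 (SE 0.41). Limma on log2(FPKM + 1) called the difference for COL1A2 (0.75 on that scale, adjusted p = 0.023). COL1A2 had 0.0651 to 0.306 FPKM in TT642, below the offset of 1, and its TT642 effect was 0.13 on that scale, beside 0.82 by edgeR. With the offset of 0.1, limma called 0 of 7 chains for the difference. Without induced TT642 hairpin 2, with its uninduced partner kept, the edgeR difference for COL1A1 was 2.01 (SE 0.51, adjusted p = 0.059). Without the hairpin 2 libraries of both cell lines it was 1.49 (SE 0.33, adjusted p = 0.079). Without hairpin 3 that of COL5A3 was 1.40 (adjusted p = 0.32).

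Libraries of the derived lines were also set against those of parental cells. The 6 hairpin libraries of a cell line are 3 derived lines, and its parental libraries are 1 line, each sequenced with and without doxycycline. The test takes the libraries as independent, so its p-values may understate the spread between lines. In TT642 some chains differed. COL5A1 was higher in hairpin lines, at 29.2 to 81.2 CPM over 6 libraries against 19.7 CPM in parental cells with and 15.8 CPM in those without doxycycline (log2 fold change 1.44, SE 0.26, adjusted p = 0.0088). It was 1 of 7 members called higher, where 4.18% of all genes were called higher, and 0 of 7 were called lower, where 4.83% were. The call was lost with TT642 libraries fitted alone (adjusted p = 0.068) and when only libraries without doxycycline were used (0.19). COL3A1, at 1106 to 2418 CPM against 781 and 586 CPM (1.07, adjusted p = 0.052), and COL11A1, at 193 to 473 CPM against 565 and 630 CPM (-0.90, adjusted p = 0.051), lay just outside the threshold. DESeq2 called COL3A1 (adjusted p = 0.0088), edgeR called COL11A1 without hairpin 1 (0.025) or hairpin 2 (0.024), and for both chains the hairpin and parental libraries did not overlap. COL1A1 had 157 to 1129 CPM in hairpin lines against 130.5 and 88.1 CPM in parental cells (1.75, SE 0.68, adjusted p = 0.15), and without hairpin 2 it was called at a smaller size (0.92, adjusted p = 0.031). COL5A2 was called without hairpin 1 (0.50, adjusted p = 0.032). In Hs578, hairpin lines were called different from parental cells for 0 of 7 chains by edgeR (3.90% of all genes in either direction) and 0 by DESeq2. At an unadjusted p under 0.05 by edgeR there were 0 of 7, beside 3040 of all 14035 genes.

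Within each line, the chains moved in blocks across the 8 libraries. In Hs578, Pearson's r of log2 CPM was 0.99 for COL1A1 with COL5A1 and 0.99 for COL1A2 with COL5A2, 0.98 for COL1A2 with COL3A1 and 0.98 for COL3A1 with COL5A2, and 0.86 to 0.95 for the other pairs without COL11A1. The points share their cell line and the split by doxycycline, so the coefficients describe these libraries and no p is given. In TT642, COL1A1, COL3A1, COL5A1 and COL5A2 correlated at 0.89 to 0.94, COL11A1 ran against them at -0.78 to -0.82, and COL5A3 followed none of those 4 (-0.18 to 0.19). Other genes were ranked by the lower of their r values in the 2 lines, among 9477 genes whose mean log2 CPM was 2 or more in both. By that rank the gene most like COL1A1 was MDK, which encodes the growth factor midkine (r = 0.957 in Hs578 and 0.939 in TT642), and MDK also led for COL5A1 (0.947 and 0.949). For COL3A1 it was MAGED1 (0.966 and 0.974), followed by KDELR3, a retrieval receptor of the endoplasmic reticulum (0.990 and 0.962). KDELR3 was also among the 3 most like COL5A2 (0.956 and 0.910), after EPS8L2 (0.937 and 0.920) and FARP1 (0.967 and 0.914). COL5A3 was nearest to ST6GALNAC6 (0.925 and 0.921), and COL1A2 in Hs578 alone to TBL2 (0.991) and COL11A1 in TT642 alone to BST2 (0.977), each ranked by r in that line.

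The genes that build and bind collagen were counted in the same Hs578 comparison. Of 21 tested genes for folding, processing and crosslinking, 13 rose and 0 fell, where 15.2% of all genes were called higher and 14.1% lower. SERPINH1, the collagen chaperone HSP47, had 303 to 614 CPM in induced hairpin lines against 146 to 211 CPM in uninduced ones (log2 fold change 1.38, adjusted p = 0.0016). BMP1, which cleaves the C-terminal propeptide, had 168 to 239 CPM against 89.6 to 94.2 CPM (1.21, adjusted p = 1.0e-04), and the prolyl hydroxylase subunit P4HA3 had 6.46 to 8.58 CPM against 3.29 to 3.51 CPM (1.17, adjusted p = 0.022). The parental pair gave log2 ratios of 1.71, 0.89 and 1.02 for SERPINH1, BMP1 and P4HA3. The other prolyl hydroxylase and lysyl hydroxylase genes split, with P4HA1, P4HA2, P4HB, PLOD1 and PLOD3 called higher and PLOD2 not (log2 fold change 0.18, adjusted p = 0.67). The list's median log2 ratio was 0.47, 0.81 and 0.76 in hairpin pairs 1 to 3 and 0.70 in the parental pair.

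Of 10 proteoglycans and glycoproteins that bind fibrils, 5 rose and 0 fell, against the same 15.2% and 14.1% of all genes. They were led by FMOD, fibromodulin, at 1.496 to 7.511 CPM against 0.872 to 1.04 CPM (2.08, adjusted p = 0.011), TNC, tenascin C, at 65.2 to 127 against 23.3 to 27.7 CPM (1.89, adjusted p = 9.6e-04), and LUM, lumican, at 21.8 to 50.3 against 11.4 to 13.5 CPM (1.47, adjusted p = 0.0075). Parental cells gave 2.13, 0.76 and 2.04 on the log2 scale for FMOD, TNC and LUM. DCN, decorin, did not pass (0.04, adjusted p = 0.93). Among 8 collagen receptors 4 were lower and 1 higher, where 14.1% and 15.2% of all genes were. ITGA2, the integrin alpha-2 subunit, had 88.1 to 176 CPM in induced hairpin lines against 394 to 560 CPM (-1.68, adjusted p = 0.0010), and DDR2, a receptor tyrosine kinase for collagen, 280 to 310 against 469 to 493 CPM (-0.69, adjusted p = 1.5e-04). MRC2, which takes up collagen for breakdown, had 349 to 442 against 226 to 258 CPM (0.69, adjusted p = 4.5e-04). The parental pair gave log2 ratios of -1.21 for ITGA2, -0.30 for DDR2 and 1.09 for MRC2. The receptors' median log2 ratio was -0.74, -0.13 and -0.25 in hairpin pairs 1 to 3 and 0.39 in the parental pair, so that over the list the parental pair had the other sign.

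Of 9 genes of collagen secretion, 2 rose and 2 fell, which is near the shares over all genes (15.2% higher, 14.1% lower). CREB3L1, a transcription factor released from the endoplasmic reticulum that activates the type I collagen gene in mouse bone, had 61.9 to 136 against 33.7 to 47.9 CPM (1.26, adjusted p = 0.0052), SEC13, a COPII coat subunit, had 174 to 224 against 153 to 170 CPM (0.36, adjusted p = 0.013), and CREB3L2 had 200 to 215 against 246 to 276 CPM (-0.31, adjusted p = 0.030). Of 8 fibril-associated and microfibril collagens only COL6A2 rose (0.48, adjusted p = 0.023), and of 2 tested other fibrillar collagens COL27A1 did (0.65, adjusted p = 0.010). Of 7 TGF-beta induced genes TGFBI rose, at 2117 to 3214 against 691 to 749 CPM (1.95, adjusted p = 4.4e-04). The count of 1 in the fibril-associated list and of 1 in the TGF-beta list is also near the 15.2% of all genes called higher. Without hairpin 3, the calls of COL27A1, COL6A2, P4HA3, FMOD, SEC13 and CREB3L2 were lost (adjusted p = 0.11 to 0.24). Over the 65 tested genes of these lists, 30 were called in Hs578 (24 higher and 6 lower), where 15.2% of all genes were higher and 14.1% lower. In TT642, where 0.0285% of all genes were called, 0 of the 65 were called by edgeR or DESeq2. By edgeR 11 of the 65 had an unadjusted p under 0.05, beside 1098 of all 14035 genes. For the difference between lines, 14 of the 65 were called, where 5.24% of all genes were. The Hs578 effect was the higher one for 8 folding and processing genes (BMP1, P4HA1, P4HA2, PLOD1, PLOD3, FKBP10, PPIB and SERPINH1) and for COL27A1, TNC and TGFBI, and the lower one for DDR2, ITGB1 and CREB3L2. Net of the parental pair, 0 of the 65 were called by edgeR, and 9 had an unadjusted p under 0.05, beside 1996 of all 14035 genes. DESeq2 called 2 of the 65, beside 246 of all genes.

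**Figure D4:**
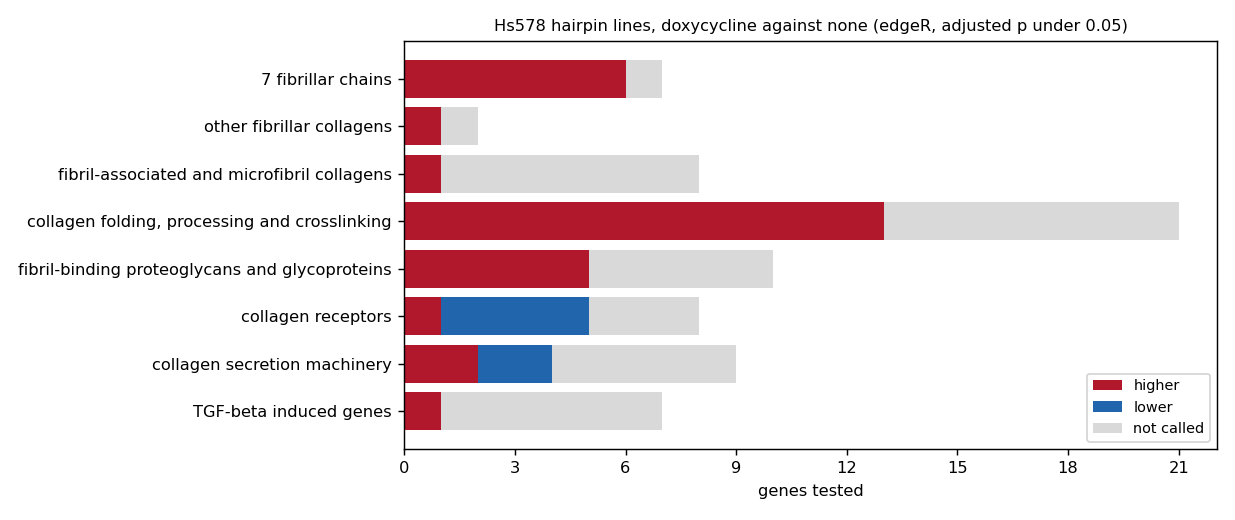
Number of genes tested in each list that were called higher, called lower or not called in Hs578 hairpin lines with doxycycline against none, as stacked bars. The fibrillar chains (6 of 7) and the folding and processing genes (13 of 21) hold mostly higher calls, and the collagen receptors hold 4 lower calls of 8.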

How the data were processed

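Per the labels' protocols, polyadenylated RNA was made into stranded TruSeq libraries. The authors deposited raw counts per gene symbol for 20114 genes and FPKM for 20111 genes. The submitters' processing notes name hg19 as the genome build. The aligner, counter, annotation and strand setting are not stated there, so reads of overlapping or antisense genes may be included. Columns were matched to samples by title.

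The quasi-likelihood test of edgeR 4.0.16 (R 4.3.3) was run on the counts with TMM scaling, robust moderation and its default filter on low counts by group. A mean for each of the 8 groups was fitted, with 8 residual degrees of freedom. Tests were two-sided, with Benjamini-Hochberg adjustment over 14035 genes and calls at an adjusted p under 0.05. The SE given with an edgeR log2 fold change is its absolute value divided by the square root of the F statistic. It is thus worked back from the test and is not a separate estimate of the uncertainty. DESeq2 1.42.0, limma 3.58.1 on log2(FPKM + 1) and log2(FPKM + 0.1), relative log expression scaling, no filter, a replicate block and left-out libraries were alternatives. Unless a single library is named, a fit without a hairpin left out its libraries, with and without doxycycline, from both cell lines. The log2 ratio of a pair was taken with a prior count of 2. The test was also run on simulated counts with known changes, drawn from Hs578 mean levels for all libraries and without gene-specific spread. Its outcome is not given, and no result here rests on it. The lowest chi-square per degree of freedom between libraries of a group was 5.35, so none was treated as a duplicate. Hairpin numbers pair libraries by design, since the same derived line was sequenced with and without doxycycline. The correlation of deviations from the group means within a pair was 0.13, -0.03 and 0 for Hs578 hairpins 1 to 3, and 0.44, 0.42 and 0.42 for those of TT642. Sequences came from RefSeq tables of GRCh38.p14, with 3 of 7 genes matched. Named genes were the 7 chains, PRRX1, up to 3 called genes per list with the largest change, and up to 3 of the most correlated genes per chain. Genes outside this rule (the other folding genes, DCN and the markers) were named after their values were seen. The chains and lists were chosen with earlier results of these data known.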

Additional observations from a re-analysis of the deposited data

How the results depend on the processing

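Of 812 alternative values for the 7 chains, 747 kept direction and side of the threshold, 26 lost a call, 14 gained one and 25 changed sign. Most of these values had no call to lose, since the chain was not called in that comparison. In the Hs578 doxycycline effect the call was lost in 8 of 16 alternatives for COL1A1, 5 for COL5A3 and 4 for COL5A2. It was lost in 2 for COL3A1 and in 1 each for COL1A2 and COL5A1. Each sign change was of a value that was not called. COL11A1 in Hs578 and COL1A2 in TT642 rest on few counts, so depth limits them, and the single parental pairs limit every comparison with parental cells. Elsewhere the cause was not tested.

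The replicate block changed no chain's call. With it, 46 genes were called in TT642 (4 without), 1763 for the difference between lines (735 without) and 140 net of parental (57 without), and the TT642 effect of COL11A1 turned to -0.027. DESeq2 called 73 genes in TT642, 1274 for the difference, 246 net of parental and 920 for Hs578 hairpin lines against parental (547 by edgeR). With no filter, 8 genes were called in TT642. With limma on log2(FPKM + 1), 13 were called in TT642, 1118 for the difference, 701 for TT642 hairpin lines against parental (1264 by edgeR) and 257 for those of Hs578. On log2(FPKM + 0.1), 13 were called net of parental, 634 for TT642 hairpin lines against parental and 114 for those of Hs578. For COL11A1, FPKM with the smaller offset gave a Hs578 effect of -0.13, a TT642 effect of -0.081, a difference of -0.054 and a net effect of -0.26. With the larger offset the Hs578 effect was -0.028, the TT642 effect -0.077 and the net effect -0.049. In Hs578 hairpin lines the mean of this chain was 0.046 FPKM induced and 0.069 FPKM uninduced, but 0.48 and 0.25 CPM, so FPKM and counts differed in direction there. COL5A3 in Hs578 hairpin lines against parental turned to -0.039 and -0.059 under the smaller and the larger offset. With each line fitted alone, 2 genes were called in TT642, 2 net of parental and 240 for Hs578 hairpin lines against parental. With uninduced libraries only, 129 were called for TT642 and 0 for Hs578 hairpin lines against parental, and COL1A2 and COL3A1 in Hs578 turned to 0.12 and 0.29.

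Leaving out replicates, genes called ranged from 840 to 4768 in Hs578, 0 to 6 in TT642, 2 to 2082 for the difference, 0 to 139 net of parental, 538 to 1405 for TT642 and 12 to 932 for Hs578 hairpin lines against parental. COL11A1 ranged from -0.32 to 0.37 in TT642, -0.12 to 1.55 for the difference and -0.17 to 0.94 net of parental, COL5A1 from -0.0074 to 0.26 net of parental, COL1A2 from -0.39 to 0.52 for the difference and -0.25 to 0.32 for TT642 hairpin lines against parental, and COL5A3 from -0.30 to 0.30 for Hs578 hairpin lines against parental. The log2 ratio of COL1A1 to COL1A2 in TT642 ranged from -0.67 to 0.37 and that of COL5A1 to COL5A2 from -0.0089 to 0.40. Against the 5 other libraries of the line, a choice made after seeing the data, the change of the COL1A1 to COL1A2 ratio was 0.99 in Hs578 and 0.51 in TT642, and that of COL5A1 to COL5A2 was 0.75 in Hs578.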
